A study of Mus musculus with 5 samples.

Results

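The genes examined were *Hmga1*, *Hmga2*, *Lin28a*, *Lin28b*, *Igf2bp1*, *Igf2bp2* and *Igf2bp3*, which encode HMGA chromatin proteins, LIN28 RNA-binding proteins and IGF2 mRNA-binding proteins. These 7 genes were selected on a measured value. Among the regulators listed for that choice, *Hmga2* was the most abundant in the atrio-ventricular canal (AVC) library. It was not the most abundant of all regulators there, since *Hmgn2*, another HMG chromatin protein, stood higher. Because of this selection, the level of *Hmga2* in the AVC library is given as a description. *Hmga2* was not tested in any comparison that uses the AVC library. Of 13486 genes with at least 1 tag that belongs to no other gene, 6 were members. *Hmga1* was the exception, since all 4 of its tag types also match *Hmga1b*. The 6 countable members had 48 tag types among them.

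Tag-seq libraries were made from dissected mouse hearts at embryonic day 10.5 (Theiler stage 17), with 1 library per condition and no replicates. The AVC, outflow tract (OFT), atria and ventricles came from wild type C57BL/6 embryos, and a second AVC library came from Twist1 Knockout embryos of the ICR strain, called *Twist1* null AVC. Tissue of embryos from at least 3 litters was pooled for each library, so the spread between embryos is unknown. Strain and genotype changed together between the AVC libraries and cannot be told apart. Tag-seq reads the 17 bases next to a CATG site that the enzyme NlaIII has cut in the cDNA, and counts how often each such sequence, called a tag type, was seen. Levels are given as tags per 1000000 listed tags (TPM), and intervals of 95% are exact Poisson intervals that cover counting error only. In bulk tissue a lower level can come from fewer cells of a type or from less RNA per cell, and these cannot be told apart.

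HMGA proteins bind the minor groove of AT-rich DNA, bend it and help transcription factors assemble, and *Hmga2* is known for its high expression in embryos and for its part in body size. LIN28A and LIN28B bind precursors of the let-7 microRNAs and block their maturation, and let-7 in turn represses many RNAs of growing fetal cells, *Hmga2*, *Lin28b* and *Igf2bp1* among them. IGF2BP proteins bind messenger RNAs such as those of *Igf2*, *Actb* and *Myc* and control where and how long they are used.

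The tag type at the 3'-most NlaIII site carried most tags of *Hmga2* and *Igf2bp2* in every library, and it was the only type seen for *Lin28a* and *Lin28b* in the wild type libraries. In the AVC and OFT it carried less of the others, 46.7 and 42.2% of *Igf2bp1* tags and 25.8 and 26.0% of *Igf2bp3* tags. The 3'-most tags are shown because the levels rest on them wholly or in part, with the NlaIII site in capitals. Each lies within the 3' UTR of the transcripts linked to RefSeq (GENCODE M21, GRCm38). All but that of *Hmga1* lie in genes on the minus strand.
Hmga1 with Hmga1b (chr17:27563328-27563348): CATGttcattcttagataccc
Hmga2 (chr10:120361900-120361920): CATGactgttaacaatgcatt
Lin28a (chr4:134003380-134003400): CATGctgacttttccttccct
Lin28b (chr10:45376647-45376667): CATGatagaaaataaaagaca
Igf2bp1 (chr11:95957618-95957638): CATGatgaataaatacctttt
Igf2bp2 (chr16:22059110-22059130): CATGacactaccagactgcga
Igf2bp3 (chr6:49085371-49085391): CATGttttactttcatttaag

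The let-7 seed, bases 2 to 8 of the mature microRNA, was the same in 9 of the 10 mouse let-7 names in RefSeq's table (GRCm38.p6). It is in capitals in let-7a and let-7i, which stand for the set.
let-7a-5p (chr13:48538239-48538260): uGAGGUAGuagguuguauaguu
let-7i-5p (chr10:122985698-122985719): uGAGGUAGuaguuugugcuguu
The complement CTACCTC was searched on the sense strand of the longest RefSeq-linked 3' UTR of each gene. *Hmga2*, *Lin28b* and *Igf2bp1* each held 4 matches, a number reached by 0.0516% of 19369 genes, while *Lin28a* held 2 and *Hmga1*, *Igf2bp2* and *Igf2bp3* held 1 each. At least 1 match was present in 8.44% of all 3' UTRs and in 19.9% of the 4454 that were 2000 bases or longer. The 3' UTRs of *Hmga2*, *Lin28b* and *Igf2bp1* are 3014, 4445 and 6337 bases long, against a median of 854 over all genes. A match is a run of letters and not a measured site of let-7 action. The matches of *Hmga2* are shown in transcript order, with the seed match in capitals, since its tags lie on either side of them.
Hmga2 match 1 (chr10:120364224-120364246): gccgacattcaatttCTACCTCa
Hmga2 match 2 (chr10:120362987-120363009): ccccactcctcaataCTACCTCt
Hmga2 match 3 (chr10:120362549-120362571): ctgatttgcaaggaaCTACCTCc
Hmga2 match 4 (chr10:120361691-120361713): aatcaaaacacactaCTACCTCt
The most abundant tag of *Hmga2* starts 646 bases before the transcript end. It lies after 3 of the matches and before the fourth, which ends 417 bases before the transcript end.

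**Figure D1:**
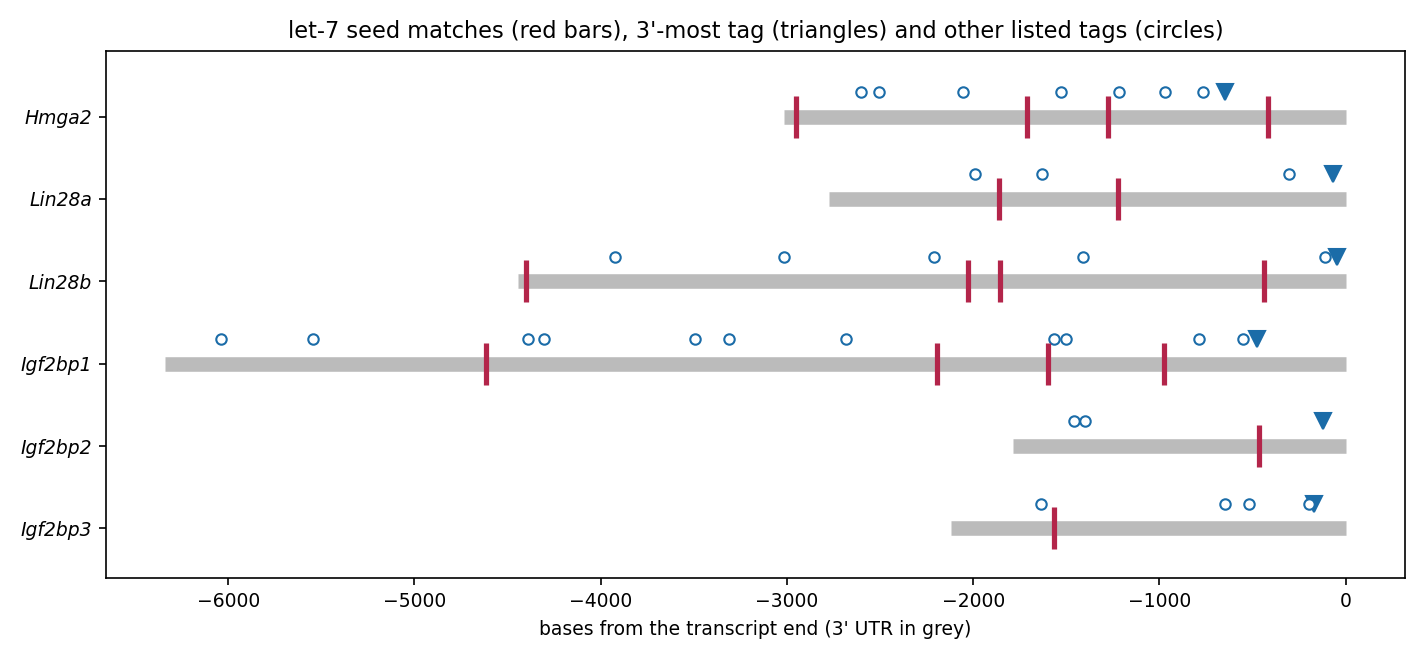
Map of the 3' UTRs (grey) of 6 members, with distance from the transcript end in bases on the x axis. Red bars are let-7 seed matches, triangles the 3'-most tag and circles the other tag types listed in any library; *Hmga2*, *Lin28b* and *Igf2bp1* carry 4 matches each.

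The libraries held 4223810 to 12977237 listed tags, the *Twist1* null AVC being the deepest, and a tag type had to reach 0.462 to 1.42 TPM to be listed. Of the tags, 70.7 to 74.5% matched 1 gene. *Twist1*, the targeted gene, stood at 918, 299, 63.4 and 55.9 TPM in AVC, OFT, atria and ventricles and at 4.55 TPM in the *Twist1* null AVC. Haemoglobin tags made up 22.0% of the atria library, 4.75% of the ventricles, 3.05% of the *Twist1* null AVC, 0.367% of the AVC and 0.433% of the OFT, which lowers the TPM of other genes in the atria. Cushion mesenchyme markers summed to 2830, 3527, 208 and 199 TPM in AVC, OFT, atria and ventricles and to 754 TPM in the *Twist1* null AVC. All 8 were present in the AVC, OFT and null, and *Prrx1* was not listed in either chamber library. The cardiomyocyte sum was 25413, 27607, 8880, 24441 and 21973 TPM in the same order, with all 12 markers present everywhere. Endothelial and endocardial markers summed to 177 to 486 TPM, epicardial markers to 89.8 to 309 and epithelial markers to 40.5 to 220.

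*Hmga2* was counted at 1845 TPM in the AVC (95% interval 1811 to 1879), 1549 in the OFT (1516 to 1583), 842 in the *Twist1* null AVC (826 to 858), 142 in the ventricles (131 to 154) and 90.003 in the atria (81.6 to 99.0). The AVC and OFT values were the highest and the chamber values the lowest, with the null between them. The members were chosen on the level of *Hmga2* in the AVC, so the place of the AVC at the top is a description only. Among the other 4 libraries no interval overlaps its neighbour, which speaks to counting error and not to the spread between embryos.

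*Hmga1*, the other HMGA gene, could only be counted together with *Hmga1b* on chromosome 11, whose near-identical transcript shares every listed tag. The shared tags stood at 350 TPM in the *Twist1* null AVC (340 to 361), 221 in the OFT (208 to 234), 141 in the AVC (132 to 151), 99.4 in the ventricles (90.2 to 109) and 43.1 in the atria (37.3 to 49.5). The order differs from that of *Hmga2*: the null was the highest library, not the AVC, and which of the genes gave the tags is unknown.

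*Lin28a* was near the listing limit in the 4 wild type libraries. It stood at 14.2 TPM in the *Twist1* null AVC (12.2 to 16.4), 5.13 in the OFT (3.38 to 7.46), 3.00 in the atria (1.64 to 5.03), 2.80 in the AVC (1.63 to 4.48) and 2.13 in the ventricles (0.974 to 4.04). The wild type intervals overlap each other, and only the null stands apart.

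*Lin28b* was also scarce. Its level was 23.4 TPM in the *Twist1* null AVC (20.9 to 26.2), 18.0 in the ventricles (14.2 to 22.5), 9.43 in the atria (6.85 to 12.7), 5.76 in the AVC (4.01 to 8.01) and 3.42 in the OFT (2.03 to 5.40). Neighbours overlap except the ventricles and the atria. Its levels in the AVC and OFT were below those in the chambers, the reverse of *Hmga2*, though the AVC and atria overlap.

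*Igf2bp1* stood at 252 TPM in the OFT (238 to 265), 223 in the AVC (211 to 235), 91.2 in the *Twist1* null AVC (86.0 to 96.5), 18.9 in the ventricles (15.02 to 23.6) and 18.6 in the atria (14.9 to 23.0). The chambers did not differ beyond their intervals.

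*Igf2bp2* varied least. It was counted at 226 TPM in the *Twist1* null AVC (218 to 234), 224 in the AVC (212 to 236), 210 in the OFT (198 to 223), 134 in the atria (123 to 145) and 128 in the ventricles (117 to 139). Only the step from the OFT to the atria was wider than the intervals of neighbours.

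*Igf2bp3* stood at 98.0 TPM in the OFT (89.7 to 107), 84.9 in the AVC (77.8 to 92.6), 55.1 in the *Twist1* null AVC (51.1 to 59.3), 51.6 in the ventricles (44.99 to 58.9) and 14.4 in the atria (11.1 to 18.2). The ventricles and the null overlap, as do the OFT and the AVC.

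**Figure D2:**
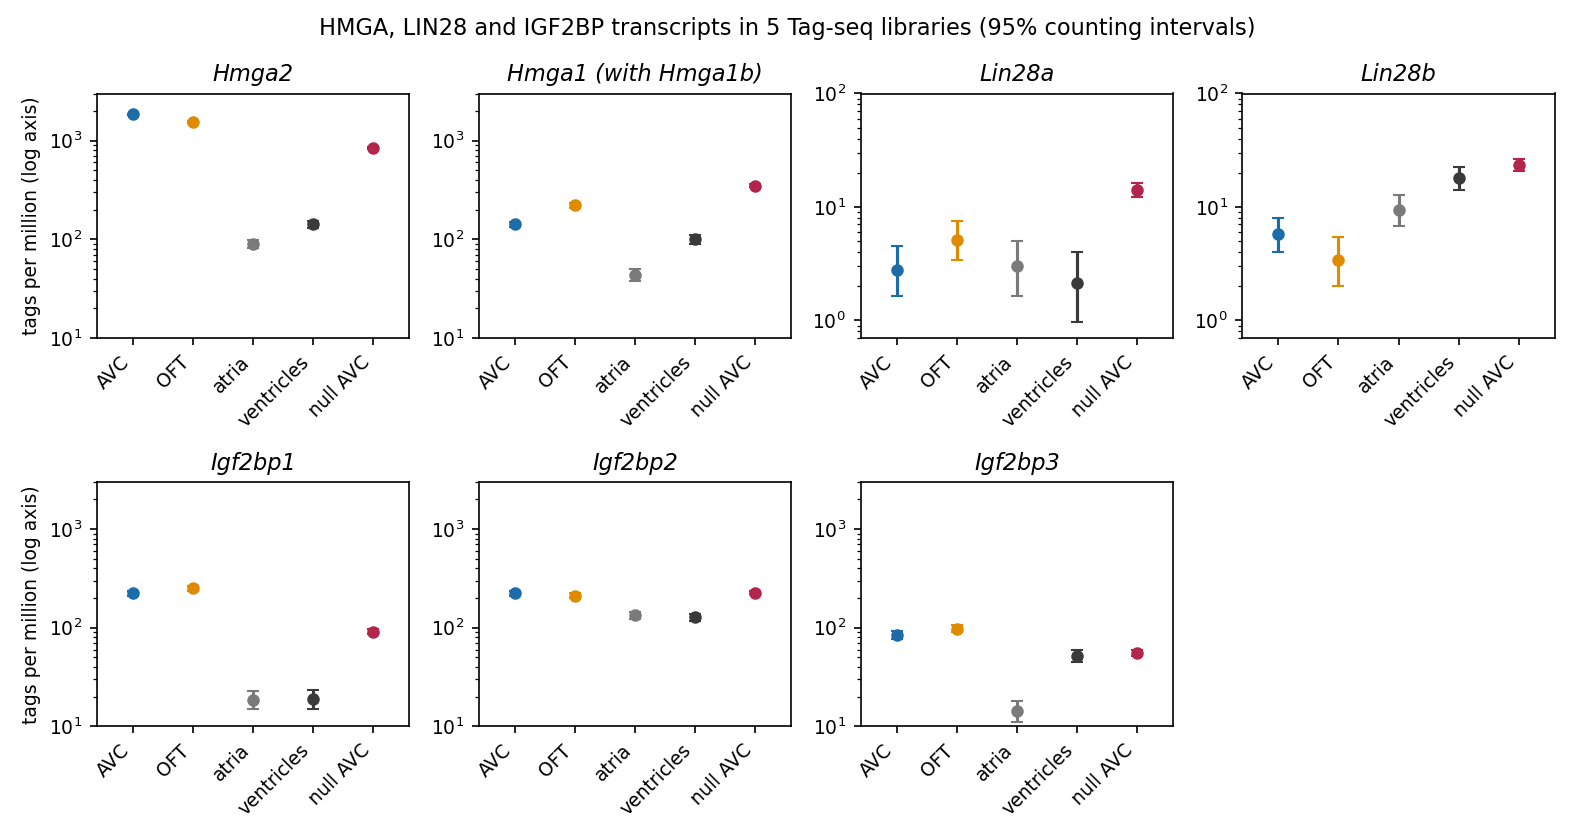
Level of each member in the 5 libraries, in TPM on a log axis whose range is lower for *Lin28a* and *Lin28b*. Points are single libraries and bars 95% counting intervals; *Hmga2* and *Igf2bp1* are highest in the AVC and OFT, while *Lin28a* and *Lin28b* are highest in the *Twist1* null AVC.

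The AVC was compared with the summed atria and ventricles by edgeR's two-sided exact test with the dispersion fixed at 0.12, and a gene was called at an unadjusted exact p under 0.05. The test sets single libraries against each other, not conditions. Among 12503 genes tested, the AVC was called higher for 43.4% and lower for 8.12%, and the median log2 ratio over all genes was 1.23, so a higher AVC level was common. TMM normalization moved that median by -0.95 and the shares to 25.6% higher and 17.5% lower. Of the 5 members tested 1 was called, *Igf2bp1*, at 11.8-fold above the chambers (log2 3.57, exact p = 8.45e-06, adjusted over all genes 0.000104). Under TMM its log2 ratio was 2.61 (exact p = 0.000669). *Hmga2*, which was not tested here, was 16.1-fold above the chambers (log2 4.01) and 8.32-fold above them under TMM.

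The other members were not called in the AVC comparison. *Igf2bp3* had a log2 ratio of 1.41 (exact p = 0.0573) and *Igf2bp2* one of 0.77 (exact p = 0.286), against the median of 1.23 over all genes. *Lin28b* had a log2 ratio of -1.23 (exact p = 0.127) and *Lin28a* one of 0.11 (exact p = 0.933). After TMM scaling *Lin28b* was called lower at -2.18 (exact p = 0.00629), while *Igf2bp2* and *Lin28a* turned to -0.18 and -0.83 without a call. *Igf2bp3* was called with the atria as the only chamber (log2 2.56, exact p = 0.00103), and *Lin28b* with the ventricles alone (-1.64, exact p = 0.0412). All 8 cushion mesenchyme markers were called higher in the AVC, as were 7 of 12 cardiomyocyte markers with 1 lower. Of 8 endothelial and endocardial markers 4 were called higher and 1 lower. Over all genes 43.4% were called higher and 8.12% lower. The median log2 ratios of these lists were 3.97, 2.12 and 1.36, against 1.23 over all genes. Of 9 erythroid markers 8 were called lower and none higher. Their part in the members' values was not tested.

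The OFT against the same chambers gave 4 called members of 6 tested, 3 higher and 1 lower, where 40.6% of 12451 genes were called higher and 8.88% lower. *Hmga2*, tested here because the AVC library takes no part, was 13.5-fold higher in the OFT (log2 3.76, exact p = 2.72e-06, adjusted 4.04e-05). *Igf2bp1* was 13.4-fold higher (log2 3.74, exact p = 3.49e-06, adjusted 4.84e-05). Under TMM both calls held, at log2 2.90 and 2.89. *Igf2bp3* was called higher at log2 1.61 (exact p = 0.0304, adjusted 0.0691), and the call was lost under TMM (exact p = 0.303) and with the ventricles as the only chamber at 0.92 (exact p = 0.211). *Lin28b* was 3.94-fold lower in the OFT (log2 -1.98, exact p = 0.0171, adjusted 0.0430). It was -2.83 under TMM, and -1.46 and not called with the atria as the only chamber (exact p = 0.0897). The OFT held 18 tags of *Lin28b*, all of 1 tag type that holds 3 G and C bases.

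*Igf2bp2* and *Lin28a* were not called in the OFT, at log2 0.69 (exact p = 0.345) and 0.98 (exact p = 0.243). The tags shared by *Hmga1* and *Hmga1b*, tested only as an alternative, were 3.16-fold higher in the OFT (exact p = 0.025, adjusted 0.0593), and in the AVC 2.02-fold above the chambers (exact p = 0.164). The AVC and OFT comparisons share the chamber libraries, so their values are not independent. In the OFT all 8 cushion mesenchyme markers, 6 of 12 cardiomyocyte markers and 4 of 8 endothelial and endocardial markers were called higher. Over all genes 40.6% were called higher and 8.88% lower. The median log2 ratios of these lists were 3.60, 1.40 and 1.57, against 1.07 over all genes. All 9 erythroid markers were called lower. Their part in the members' values was not tested.

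**Figure D3:**
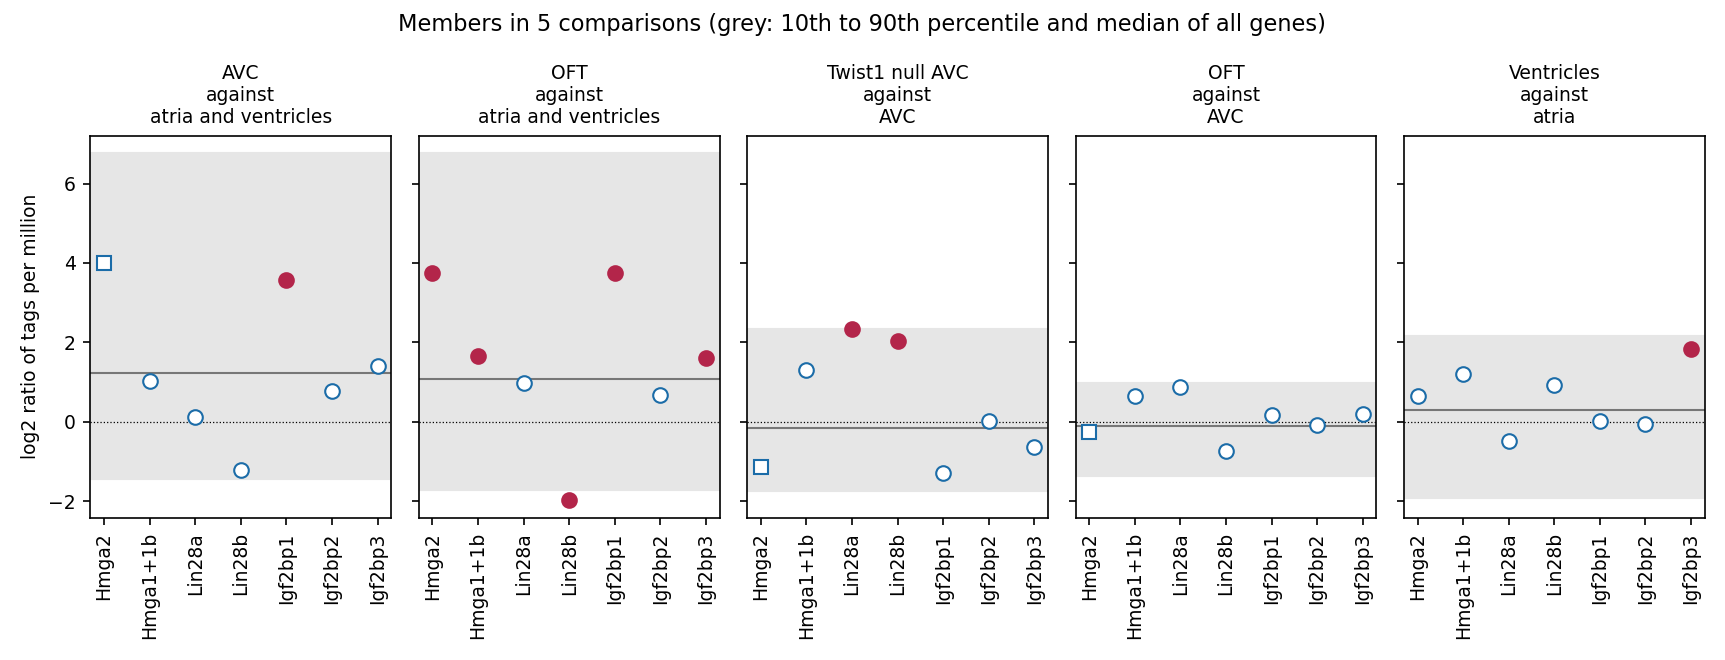
Log2 ratio of each member in the 5 comparisons. Filled points were called at an unadjusted exact p under 0.05, open points were not, and squares mark *Hmga2* where it was not tested; the grey band runs from the 10th to the 90th percentile of all genes with their median as a line, and *Lin28b* in the OFT lies below it.

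Between the *Twist1* null AVC and the AVC 2 of 5 tested members were called, both higher in the null, against 11.9% of 12963 genes called higher and 12.7% lower. *Lin28a* rose from 2.80 to 14.2 TPM, 5.05-fold (log2 2.34, exact p = 0.00498, adjusted 0.0536). *Lin28b* rose from 5.76 to 23.4 TPM, 4.06-fold (log2 2.02, exact p = 0.0100, adjusted 0.0806). Neither passed 0.05 after adjustment over all genes.

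The LIN28 calls rest on few tags. The AVC held 17 tags of *Lin28a* and 35 of *Lin28b*, each of 1 tag type, and the deeper null held 184 of 4 types and 304 of 6 types. On the 3'-most tag alone *Lin28a* was 2.80 and 12.1 TPM and *Lin28b* 5.76 and 20.04 TPM, and both calls held (exact p = 0.0116 and 0.0218). With 5 tags put in for each tag type missing from 1 library, the log2 ratios were 1.43 and 1.25 and neither was called (exact p = 0.0742 and 0.101).

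*Igf2bp1*, *Igf2bp3* and *Igf2bp2* were not called in the null, with log2 ratios of -1.29 (exact p = 0.0782), -0.62 (exact p = 0.391) and 0.02 (exact p = 0.982). The *Hmga1* and *Hmga1b* tags had a log2 ratio of 1.31 (exact p = 0.0731). *Hmga2*, untested, was 2.19-fold below the AVC. Over the same libraries 4 of 8 cushion mesenchyme markers, *Sox9*, *Postn*, *Col1a1* and *Col3a1*, were called lower in the null and none higher. *Pdgfra*, *Vcan*, *Msx1* and *Prrx1* were not called, at log2 0.02, -0.65, -0.60 and -0.89. Of 9 erythroid markers 5 were called higher. Over all genes 11.9% were called higher and 12.7% lower, and the part of the cell type markers is open. Their part in the members' values was not tested.

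The tag types of *Hmga2* did not move together between the AVC libraries. The 3'-most tag carried 91.0% of its AVC tags (exact binomial interval 90.5 to 91.5%), 91.3% of OFT, 96.7% of atria and 94.2% of ventricle tags, but 67.1% in the *Twist1* null AVC (66.2 to 68.0%). Over all tags of 1 gene this share was 70.5, 69.1, 80.3 and 74.8% in AVC, OFT, atria and ventricles and 67.5% in the null. From the AVC to the null it rose for *Igf2bp1* (46.7 to 53.8%) and *Igf2bp3* (25.8 to 48.7%). It fell for *Igf2bp2* (89.8 to 82.2%) and, from 100%, for *Lin28a* and *Lin28b* (to 85.3 and 85.5%). The 3'-most tag of *Hmga2* stood at 1679, 1414, 87.0 and 134 TPM in the AVC, OFT, atria and ventricles and at 565 in the null. The other tags together stood at 166 TPM for the AVC (156 to 176), 135 for the OFT, 3.0001 for the atria and 8.29 for the ventricles, and at 277 for the null (268 to 286). The 3'-most tag was thus lower in the null and the sum of the others higher.

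Single upstream sites differed more. The tags of 2 sites are shown because they changed in opposite directions within the 3' UTR, 2057 and 1531 bases before the transcript end.
Hmga2, 2057 bases before the end (chr10:120363311-120363331): CATGggaggagcgaaaccgaa
Hmga2, 1531 bases before the end (chr10:120362785-120362805): CATGtttctatgacttttttt
The tag at 2057 stood at 90.7, 67.2 and 6.16 TPM for AVC, OFT and null and was not listed in either chamber (log2 null over AVC -3.88). The tag at 1531 stood at 10.7, 13.3 and 121 TPM in the AVC, OFT and null (log2 3.50). The tag at 2507 followed the second, at 36.0, 31.7 and 108 TPM (log2 1.59). Over the 7 tag types of *Hmga2* with at least 100 tags in both libraries together the log2 ratios thus spanned 7.38. Wide spans were common between these libraries. Over 126 genes with 5 or more such tag types the median span was 4.38, and 5.56% of them spanned at least as much as *Hmga2*.

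Tags antisense to *Hmga2*, which are not part of its level, came from the opposite side of the same NlaIII sites. They summed to 179, 158, 9.0003 and 8.997 TPM for AVC, OFT, atria and ventricles and to 313 TPM for the null, which is 9.70, 10.2, 10, 6.34 and 37.2% of the sense tags. Over all genes antisense tags came to 4.23 to 9.06% of sense tags in the wild type libraries and to 12.3% in the null. The rise in the null was not particular to *Hmga2*. For *Igf2bp1* the share was 12.8% in the AVC and 41.8% in the null. For *Lin28a* and *Lin28b*, on few tags, it was 0 in the AVC and 41.8 and 16.1% in the null. For *Igf2bp3* it was 3.49 and 5.73%, while for *Igf2bp2* it fell from 40.4 to 20.9%. At the *Hmga2* site 2057 bases before the end the antisense share was 18.6% in the AVC (exact binomial interval 15.7 to 21.8%) and 94.0% in the null (92.6 to 95.2%). The summed tags of both strands at that site were 111 TPM in the AVC and 102 in the null, so the sense and antisense tags moved in opposite directions around a similar sum. The antisense tag there starts with T after the NlaIII site and the sense tag with G. Among sense tags of all genes that were listed in both libraries above a minimum number of tags, those that start with T and G had median log2 ratios of 0.91 and -0.61. These ratios are of the null over the AVC. The antisense tags at 1220, 764 and 971 bases, which start with G, G and A, stood at 88.9, 35.7 and 23.2 TPM in the AVC. In the null they stood at 116, 42.3 and 18.0 TPM.

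**Figure D4:**
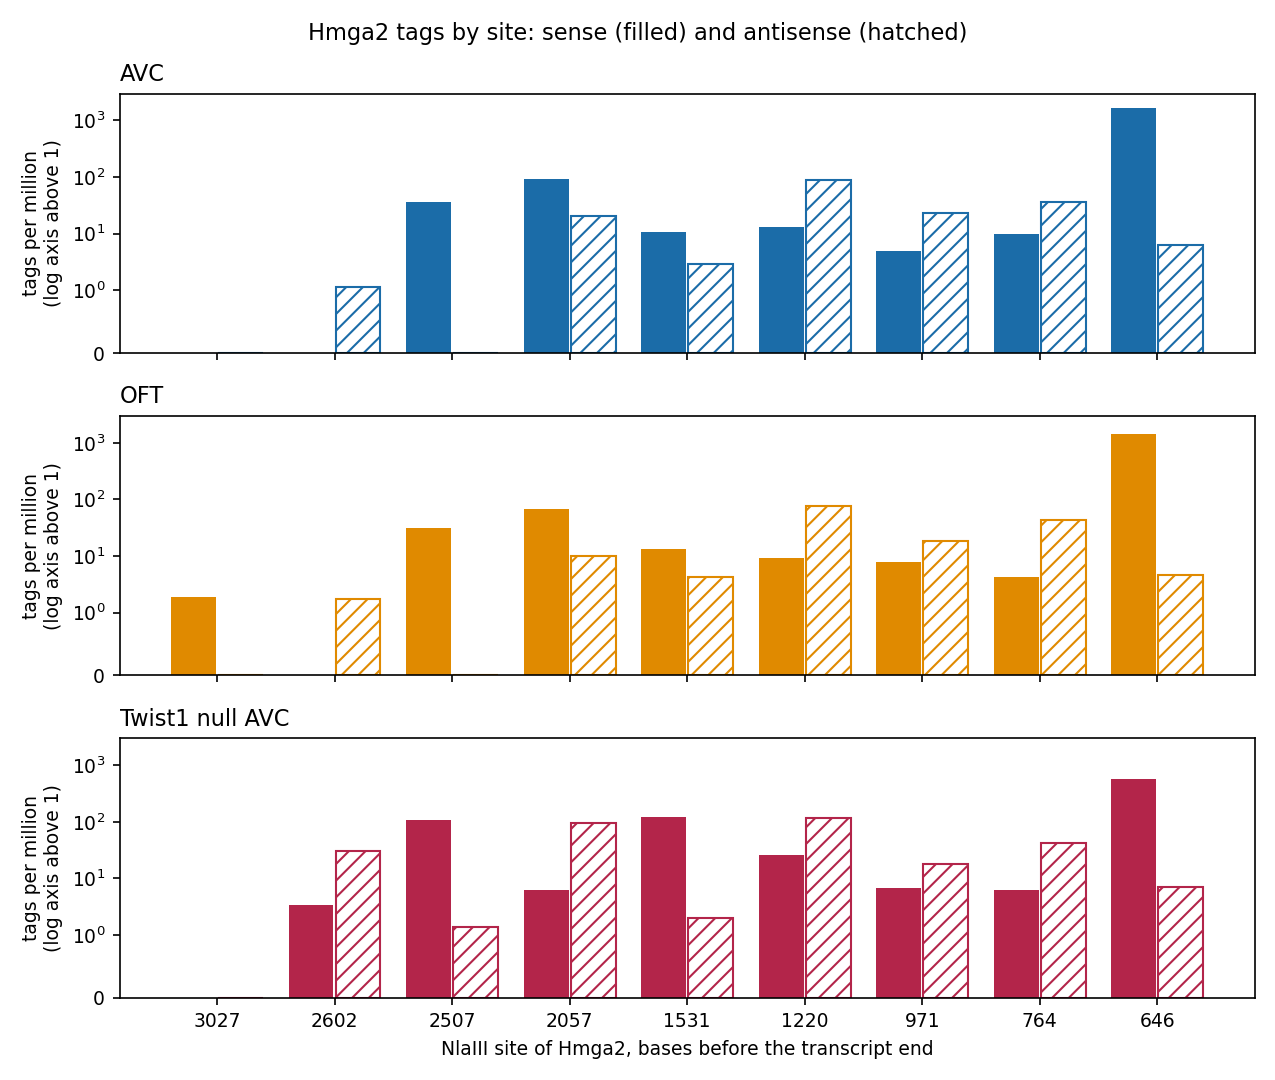
Sense (filled) and antisense (hatched) tags at each NlaIII site of *Hmga2* in the AVC, OFT and *Twist1* null AVC, in TPM on an axis that is linear below 1 and logarithmic above. In the AVC and OFT the site at 2057 bases is mostly sense, while in the null the site at 2057 bases is mostly antisense and the sites at 1531 and 2507 bases are higher in sense.

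The base composition of a tag moved with its ratio over tags of all genes. These medians cover tag types of 1 gene that were listed on both sides of a comparison, above a minimum number of tags. Against the chambers the median log2 ratio in the AVC was 0.43 for tags with 0 to 5 G and C bases and 1.23 for 9 to 17. In the OFT these medians were 0.38 and 1.06. In the null over the AVC the median log2 ratio was 0.91 for the 4920 tag types that start with T after the NlaIII site, and -0.61, -0.37 and -0.61 for those that start with A, C and G. By the number of G and C bases in the 17, it was 0.30 for 0 to 5, -0.24 for 6 to 8 and -0.37 for 9 to 17. The *Hmga2* tags at 2057 and 1531 bases start with G and T and hold 10 and 3 G and C bases, and their ratios of -3.88 and 3.50 have the signs of their class medians but are larger in size. The tag at 2507 starts with A and holds 5, and its ratio of 1.59 has the sign of its GC class and not of its first base. The 3'-most tag also starts with A and holds 5, and its ratio of -1.57 has the sign of its first base and not of its GC class. The *Hmga2* tags at 971, 1220 and 764 bases start with T and hold 4, 7 and 7. The ratio at 971, 0.42, has the signs of both its class medians. The ratio at 1220, 0.95, has that of its first base alone, and the ratio at 764, -0.69, that of its GC class alone. The 3'-most tag of *Lin28a* starts with C and holds 8 G and C bases, classes whose medians are both below 0. That of *Lin28b* starts with A, a class with a median below 0, and holds 3, in the class with a median of 0.30. Both calls held without the tags that start with T (log2 2.62 and 2.28) and after scaling by tag GC content (2.72, exact p = 0.00103, and 1.62, exact p = 0.0378). The 3'-most tag shared by *Hmga1* and *Hmga1b* starts with T and holds 6 G and C bases. Its ratio of 1.39 has the sign of its first base and not of its GC class. Whether tag composition takes part in the *Hmga2* pattern on either strand, or in that of the *Hmga1* and *Hmga1b* tags, was not tested.

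*Igf2bp1* as a gene was not called in the null (exact p = 0.0782), and its tag types are given as values. The AVC listed 12 types and the null 7. Every type listed in both was lower in the null. The other types of the AVC, at 0.988 to 3.46 TPM there, were not listed in the null. The type 550 bases before the end was listed in the null at 0.771 TPM and not in the AVC. Types picked because the AVC lists them lean toward a fall. The 4 largest types of the AVC stood at 104, 44.3, 36.0 and 23.9 TPM in the AVC and at 49.1, 13.2, 17.5 and 9.02 TPM in the null, a range of log2 ratios from -1.75 to -1.04. They start with A, G, G and C. The all-gene medians for A, G and C in the null over the AVC were also below 0, at -0.61, -0.61 and -0.37. The largest holds 3 G and C bases, in the class with a median of 0.30. The part of tag composition was not tested. In the chambers 2 of the types were listed, at 10.5 and 8.14 TPM in the atria and 9.23 and 9.71 in the ventricles.

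The direction of *Igf2bp3* depended on the tag. Its 2 main tags are shown for that reason, the first at the 3'-most site and the second in the coding sequence 2789 bases before the transcript end, across an exon junction.
Igf2bp3, 3'-most site: CATGttttactttcatttaag
Igf2bp3, coding sequence: CATGaatcttcaagcacattt
The 3'-most tag stood at 21.9, 25.4, 11.4, 43.3 and 26.8 TPM for AVC, OFT, atria, ventricles and null. The coding tag stood at 49.2, 56.4 and 14.6 TPM in the AVC, OFT and null and at 8.29 in the ventricles, and was not listed in the atria. With 3'-most sites alone *Igf2bp3* had log2 ratios against the chambers of -0.28 (AVC) and -0.06 (OFT), neither called. Without tags that start with T it was called higher in both, at 3.26 and 3.49 (exact p = 5.48e-05 and 1.78e-05).

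*Igf2bp2* carried 82.2 to 98.9% of its tags at the 3'-most site. Its second tag, 1400 bases before the end, stood at 22.9, 28.7 and 39.7 TPM in the AVC, OFT and null and at 2.36 and 1.42 TPM in the atria and ventricles. The near-even level of the gene thus held for the main tag and not for this one. A single antisense tag on the opposite side of the 3'-most site stood at 90.2, 107, 49.7, 51.8 and 46.7 TPM in the AVC, OFT, atria, ventricles and null.

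No member was called between the OFT and the AVC, where 5.22% of 12541 genes were called higher and 7.35% lower. The log2 ratios of the 5 tested members ran from -0.75 for *Lin28b* (exact p = 0.376) to 0.87 for *Lin28a* (exact p = 0.353). *Hmga2* was 1.19-fold lower in the OFT, untested. With 1 library each these values do not show that the regions are alike.

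Between ventricles and atria 1 of 6 tested members was called, where 11.1% of 10705 genes were called higher and 9.03% lower. *Igf2bp3* was 3.59-fold higher in the ventricles (log2 1.84, exact p = 0.017, adjusted 0.131). It was called on the 3'-most site alone (log2 1.93), but neither without tags that start with T (1.26, exact p = 0.157) nor after scaling by tag GC content (1.28, exact p = 0.0933). *Lin28b*, *Hmga2* and *Lin28a* were not called, at log2 0.93 (exact p = 0.243), 0.66 (exact p = 0.369) and -0.49 (exact p = 0.679), and *Igf2bp1* and *Igf2bp2* lay within 0.07 of 0.

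Genes that make or break down let-7, a list of 18, were described beside the members. In the AVC 6 were called higher than in the chambers and none lower, where 43.4% of all genes were called higher, so the list held no larger share than the background. Its median log2 ratio was 1.001 against 1.23 for all genes, and 0.59 against 0.75 with 5 tags put in for each missing tag type. *Ddx17*, a helicase of the Drosha complex, was higher at log2 3.70 (exact p = 4.22e-06), *Khsrp*, a let-7 precursor-binding protein, at 3.71 (exact p = 2.08e-05) and *Drosha*, the nuclease itself, at 2.67 (exact p = 0.000627). The OFT gave 6 higher and none lower, led by the same 3 genes, where 40.6% of all genes were called higher, with a median of 0.99 against 1.07 for all genes, and 0.40 against 0.66 with missing tag types filled. In the null 2 of 18 were higher and 3 lower than in the AVC, where 11.9% of all genes were called higher and 12.7% lower. The median was 0.21 against -0.16 for all genes. *Hnrnpa1*, an RNA-binding protein reported to restrain let-7a processing, was higher at 2.24 (exact p = 0.00279), as was *Khsrp* at 2.14 (exact p = 0.00473), while *Drosha* was lower at -2.04 (exact p = 0.00718). *Dicer1*, which cuts let-7 precursors, stood at 54.2, 27.9, 33.0, 38.1 and 64.2 TPM in the AVC, OFT, atria, ventricles and null and was called in no comparison.

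Among 20 known let-7 target genes 6 of 19 tested were called higher and 3 lower in the AVC against the chambers, where 43.4% of all genes were called higher and 8.12% lower, with a median of 1.19 against 1.23 for all genes. *Arid3a*, a DNA-binding protein, stood at 12.5 and 13.7 TPM for AVC and OFT and was not listed in either chamber. *Tgfbr1*, a TGF-beta receptor, was higher in the AVC at log2 2.81 (exact p = 0.000375) and the transcription factor *Mycn* lower at -2.80 (exact p = 0.000376). The OFT gave 7 higher and 2 lower of 20, where the shares over all genes were 40.6% and 8.88%, with a median of 0.80 against 1.07. The cell cycle gene *Ccnd2* was higher there at 3.62 (exact p = 5.29e-06). *Trim71*, a partner of LIN28 in stem cells, was listed only in the OFT at 4.56 TPM and in the null at 1.31 TPM.

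In the null 4 let-7 target genes were called higher than in the AVC and 1 lower, with a median of 0.04 against -0.16 over all genes, and -0.20 against -0.30 with missing tag types filled. The shares over all genes were 11.9% higher and 12.7% lower. *Mycn* rose by 2.79 (exact p = 0.000397), *Arid3b* by 2.90 (exact p = 0.000406) and *E2f6* by 2.54 (exact p = 0.000906) on the log2 scale. Between OFT and AVC, where 5.22% of all genes were called higher and 7.35% lower, 2 were called higher and none lower. Between ventricles and atria, where the shares were 11.1% and 9.03%, 1 was called higher and none lower. The let-7 processing list gave 0 and 1 calls in those comparisons.

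Of 8 RNAs known to be bound by IGF2BP proteins, *Igf2*, the fetal growth factor, stood at 1207, 1591, 2323, 2332 and 3033 TPM in the AVC, OFT, atria, ventricles and null, lowest in the AVC and OFT where *Igf2bp1* was highest. It was called in no comparison. *H19*, the non-coding RNA next to *Igf2*, stood at 5213, 7249, 2698, 2352 and 3346 TPM and was called higher in the OFT than in the chambers (log2 1.52, exact p = 0.0386, adjusted 0.0824). The list gave 3 higher and 1 lower of 7 tested in the AVC, with a median of 1.04 against 1.23 for all genes and a background of 43.4% called higher. It gave 4 higher and none lower of 7 in the OFT, with a median of 1.52 against 1.07 and a background of 40.6%. In the null 2 of 8 were higher and none lower, with a median of 0.43 against -0.16 and a background of 11.9%. The list gave no call in the OFT against the AVC, and 1 lower between ventricles and atria, where 9.03% of all genes were called lower.

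The 7 other HMG chromatin proteins, of the HMGB and HMGN families, gave 2 higher in the AVC and the same number in the OFT against the chambers, none lower in either, with medians of 0.23 and -0.07 against 1.23 and 1.07 over all genes, and with backgrounds of 43.4% and 40.6% called higher. In the null 1 was higher and 1 lower, where 11.9% of all genes were called higher and 12.7% lower. In the OFT against the AVC none was called. Between ventricles and atria 1 was higher, where 11.1% of all genes were.

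The genes whose pattern over the 5 libraries was most like *Hmga2*, among 8492 genes listed in all of them, were *Entpd4*, *2700081O15Rik*, *Atxn2l*, *Sptssa* and *Setd3*. Their root mean square difference from *Hmga2* in centred log2(TPM + 1) was 0.04 to 0.18. *Entpd4*, the nearest, stood at 52.7, 46.9, 1.71, 3.31 and 23.3 TPM for AVC, OFT, atria, ventricles and null. The nearest to *Lin28b* were *Atox1*, *Snrpg*, *Trp53rka*, *Smox* and *Mrpl11*, at 0.15 to 0.20. *Snrpg* stood at 333, 301, 640, 1184 and 1462 TPM in the AVC, OFT, atria, ventricles and null, a rise from the OFT to the null as in *Lin28b*.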

How the data were processed

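The authors deposited 1 table per library, with counts of 17-base tags next to NlaIII sites, and every count in the tables was at least 6. The submitters' processing notes name the mm9 build. Here the tags were matched in sense, without mismatch, to the virtual tags of RefSeq-linked GENCODE M21 transcripts (GRCm38), tags of 1 gene were kept and their counts summed per gene. Listed tags per library, 4223810 to 12977237, served as library sizes, and intervals cover counting error only. Genes were compared with edgeR 4.0.16 (R 4.3.3, two-sided exact test, dispersion fixed at 0.12), with Benjamini-Hochberg adjustment over all genes, and the code was tested on simulated data. With 1 library per condition no replicate error could be measured. Members and gene lists were chosen with earlier results of these data known. Named genes were the members, *Twist1*, the 5 nearest patterns of *Hmga2* and *Lin28b*, *Dicer1*, *Trim71*, *Igf2*, *H19* and, where 5 or more list genes were called, the 3 with the smallest p. Alternatives covered scaling (TMM, DESeq2 1.42.0), dispersion, tag choice, thinning and chamber libraries.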

Additional observations from a re-analysis of the deposited data

Results flagged for a closer look

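Tags antisense to the members lie outside the levels compared. Their highest sums were in the *Twist1* null AVC for *Hmga2* (313 TPM), *Igf2bp1* (38.1 TPM), *Lin28a* (5.93 TPM), *Lin28b* (3.78 TPM) and *Hmga1* (2.08 TPM), and in the OFT for *Igf2bp2* (107 TPM) and *Igf2bp3* (3.23 TPM). The *Twist1* null AVC is also the deepest library and the one with the highest antisense share over all genes, 12.3% of sense tags. The tags shared by *Hmga1* and *Hmga1b*, which no gene count uses, reached 350 TPM in the *Twist1* null AVC.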

How the results depend on the processing

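No paired analysis was possible because the labels give 1 library per condition and no replicate numbers. Of 96 alternative counts of called members 79 stayed within the set range of the first count and 17 moved, and of 516 alternative values of single members 456 kept direction and side of the threshold, 20 lost the call, 11 gained it and 29 changed sign. In the AVC against the chambers, 1 call became 2 with TMM, DESeq2 size factors, the study's all-tag totals, tags starting with T left out, the chambers as 2 libraries of 1 group, the atria alone or the ventricles alone, and 3 with a dispersion of 0.05. In the OFT against the chambers 4 calls became 2 with a dispersion of 0.4. In the *Twist1* null AVC 2 calls became 0 with a dispersion of 0.4, with adjusted p under 0.05 and with 5 tags for each missing tag type. Between ventricles and atria 1 call became 0 with a dispersion of 0.4, adjusted p, tags starting with T left out or the GC scaling, which was chosen after seeing the data, and 2 with tag types of more than 10 tags. Apart from settings that only change the threshold, the cause was not tested.

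The values that changed sign are given as log2 ratios, and none was called under the setting that turned it. Against the chambers in the AVC, *Lin28a* was -0.83 with TMM, -0.87 with DESeq2, -0.095 without haemoglobin, -0.73 with thinned libraries, -0.14 without tags starting with T, -0.10 with the atria alone and -0.94 with GC scaling. *Igf2bp2* was -0.18, -0.22 and -0.34 with TMM, DESeq2 and GC scaling in the AVC, and -0.17, -0.19 and -0.28 in the OFT. *Igf2bp3* on 3'-most sites was -0.28 for the AVC, -0.061 for the OFT and 0.29 for the null. *Igf2bp2* in the null was -0.11 on 3'-most sites, -0.0066 with types of more than 10 tags and -0.035 when thinned, and in the OFT against the AVC it was 0.27 with all-tag totals and 0.030 with GC scaling. *Igf2bp1* between ventricles and atria was -0.30 with TMM, -0.29 with DESeq2, -0.12 with all-tag totals, -0.26 without haemoglobin, -0.18 on 3'-most sites, -0.0037 without 1-base neighbours, -0.17 without tags starting with T and -0.35 with GC scaling.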
